A study of Mus musculus with 9 samples.

Results

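Interleukin-6 (IL-6) family signalling and the acute-phase response were examined through 10 genes in left ventricle of mice. The genes were Il6, Lif, Il6ra, Il6st, Osmr, Socs3, Serpina3n, Hp, Lcn2 and Sprr1a, out of 49671 gene identifiers in the deposited tables. All 10 were found by symbol, and all 10 passed the filter on low counts that left 15261 genes for testing. Serpina3n, Hp and Sprr1a had been picked for their rise in knockout ventricle, so their genotype values are given as a description, with no test. No such choice is stated for the other 7. All 10 were nevertheless chosen with earlier results of these data known, so p-values of the 7 may not be free of that choice. Il6 and Sprr1a passed the filter through knockout libraries alone, because none of the 4 wild-type libraries reached the 0.401 CPM (counts scaled to a common library size) that the filter asked of at least 2 libraries.

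Polyadenylated RNA was sequenced in 9 libraries from mice lacking dSG (delta-sarcoglycan, encoded by Sgcd) and from wild-type (WT) mice. Delta-sarcoglycan belongs to a membrane complex that protects heart and skeletal muscle fibres during contraction, and mice without it develop cardiomyopathy. Ifetroban, a blocker of the thromboxane receptor, or vehicle was given to both genotypes, which made 3 KO ifetroban, 2 KO vehicle, 2 WT ifetroban and 2 WT vehicle libraries. The labels used here give neither dose, duration, age nor strain. They also do not say whether each library was a different animal, so the spread behind every p-value may be partly technical.

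IL-6, oncostatin M and leukemia inhibitory factor are cytokines of 1 family. Each binds a receptor of its own that joins the common signalling subunit encoded by Il6st, after which JAK kinases phosphorylate the transcription factor STAT3. STAT3 raises its own inhibitor Socs3 together with acute-phase genes, which are best known from the liver but are also expressed by injured heart, macrophages and fibroblasts. In the heart this family is known for protecting cardiomyocytes in the short term and for a part in inflammation and remodelling when active for long.

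Promoter sequences are shown for the 5 genes in which a search of the 250 bases before the transcription start found binding motifs of transcription factors that act in this response, because many of the 10 genes were high in the same libraries. RefSeq promoters on GRCm38.p6 were matched for 9 of the 10 genes; Hp is named only. Capitals mark the motifs, each searched on both strands. TGANTCA is a motif of AP-1 (present in 6.75% of 32851 mouse promoters of the same length), TTCNNNGAA of STAT factors (7.02%), and TTGNGCAA of C/EBP factors (2.61%). The consensus motif of NF-kB, of 10 letters, was present in 3.9%.
Il6 promoter, chr5:30012864-30013113, plus strand: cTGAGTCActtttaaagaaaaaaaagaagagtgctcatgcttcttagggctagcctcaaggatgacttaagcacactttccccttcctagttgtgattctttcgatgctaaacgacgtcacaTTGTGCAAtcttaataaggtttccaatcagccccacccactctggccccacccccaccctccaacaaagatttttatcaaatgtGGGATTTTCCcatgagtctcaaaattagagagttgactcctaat
Lif promoter, chr11:4257318-4257567, plus strand: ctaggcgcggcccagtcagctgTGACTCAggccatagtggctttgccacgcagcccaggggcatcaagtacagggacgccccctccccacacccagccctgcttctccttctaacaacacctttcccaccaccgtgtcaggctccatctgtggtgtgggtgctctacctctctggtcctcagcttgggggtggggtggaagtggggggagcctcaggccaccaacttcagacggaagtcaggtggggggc
Socs3 promoter, chr11:117969367-117969616, minus strand: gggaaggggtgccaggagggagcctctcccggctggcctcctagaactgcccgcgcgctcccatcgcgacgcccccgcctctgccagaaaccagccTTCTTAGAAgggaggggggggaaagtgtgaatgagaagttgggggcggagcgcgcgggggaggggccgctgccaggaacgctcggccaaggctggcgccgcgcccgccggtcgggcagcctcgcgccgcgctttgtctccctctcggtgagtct
Lcn2 promoter, chr2:32387740-32387989, minus strand: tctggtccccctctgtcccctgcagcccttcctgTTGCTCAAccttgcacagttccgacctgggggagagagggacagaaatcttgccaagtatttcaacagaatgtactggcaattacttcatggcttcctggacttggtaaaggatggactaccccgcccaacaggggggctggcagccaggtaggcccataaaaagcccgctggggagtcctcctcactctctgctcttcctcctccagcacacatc
Sprr1a promoter, chr3:92485882-92486131, minus strand: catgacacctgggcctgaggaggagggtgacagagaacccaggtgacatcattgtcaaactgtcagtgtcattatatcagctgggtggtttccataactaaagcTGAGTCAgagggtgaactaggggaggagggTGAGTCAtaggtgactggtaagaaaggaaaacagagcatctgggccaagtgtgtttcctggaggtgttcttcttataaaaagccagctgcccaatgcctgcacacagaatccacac
The Il6 window held an AP-1 motif 249 to 243 bases before the start, a C/EBP motif 128 to 121 bases before it and an NF-kB motif 44 to 35 bases before it. Lif held an AP-1 motif at 228 to 222 bases. Socs3 held the only STAT motif among the 9 windows, at 154 to 146 bases. Lcn2 held a C/EBP motif at 216 to 209 bases. Sprr1a held AP-1 motifs at 146 to 140 and at 116 to 110 bases. No motif overlapped another, and none of the 4 was found in the Il6ra, Il6st, Osmr and Serpina3n windows. A match is a run of letters and not a measured binding site.

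Several libraries stood apart before any result was taken. Sgcd, the deleted gene, lay at 9.77, 16.4 and 18.5 CPM in KO ifetroban, 7.49 and 12.1 CPM in KO vehicle, 33.1 and 31.2 CPM in WT ifetroban, and 11.1 and 28.9 CPM in WT vehicle libraries. The value of 11.1 CPM lies within the KO range, so this library is called "the library labelled WT vehicle replicate 1" below, and directions drawn against WT vehicle include it. For the picked Serpina3n, Hp and Sprr1a it lay below every KO library, whereas for Socs3 and Lcn2 it lay above KO vehicle replicate 2. Transcript length separated the libraries too: long transcripts were under-represented in KO ifetroban replicate 1, both KO vehicle libraries and the library labelled WT vehicle replicate 1 (Spearman correlation across genes of -0.417 to -0.29), and over-represented in the other 5 (0.302 to 0.386). Sgcd is itself long, with 8257 bases of exon, and the KO libraries short of long transcripts had 7.49 to 12.1 CPM of it. The part of length in the 11.1 CPM was not tested. Markers of ventricular cardiomyocytes summed to 5.81e+04 to 7.38e+04 CPM in the 9 libraries, and the atrial markers Sln and Myl7 were at or near 0. In bulk tissue, fewer cells of a type and less RNA per cell cannot be told apart.

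KO vehicle replicate 1 had the highest level of 8 of the 10 genes, often by a wide margin. It was the highest of the 9 libraries for Il6, Lif, Osmr, Socs3, Lcn2 and the picked Serpina3n, Hp and Sprr1a. Its level was 110 times that of KO vehicle replicate 2 for Il6, 28.9 times for Lcn2, 26.9 times for Lif and 21.5 times for Socs3. The ratio was 1.55 for Il6ra and 1.10 for Il6st.

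**Figure D1:**
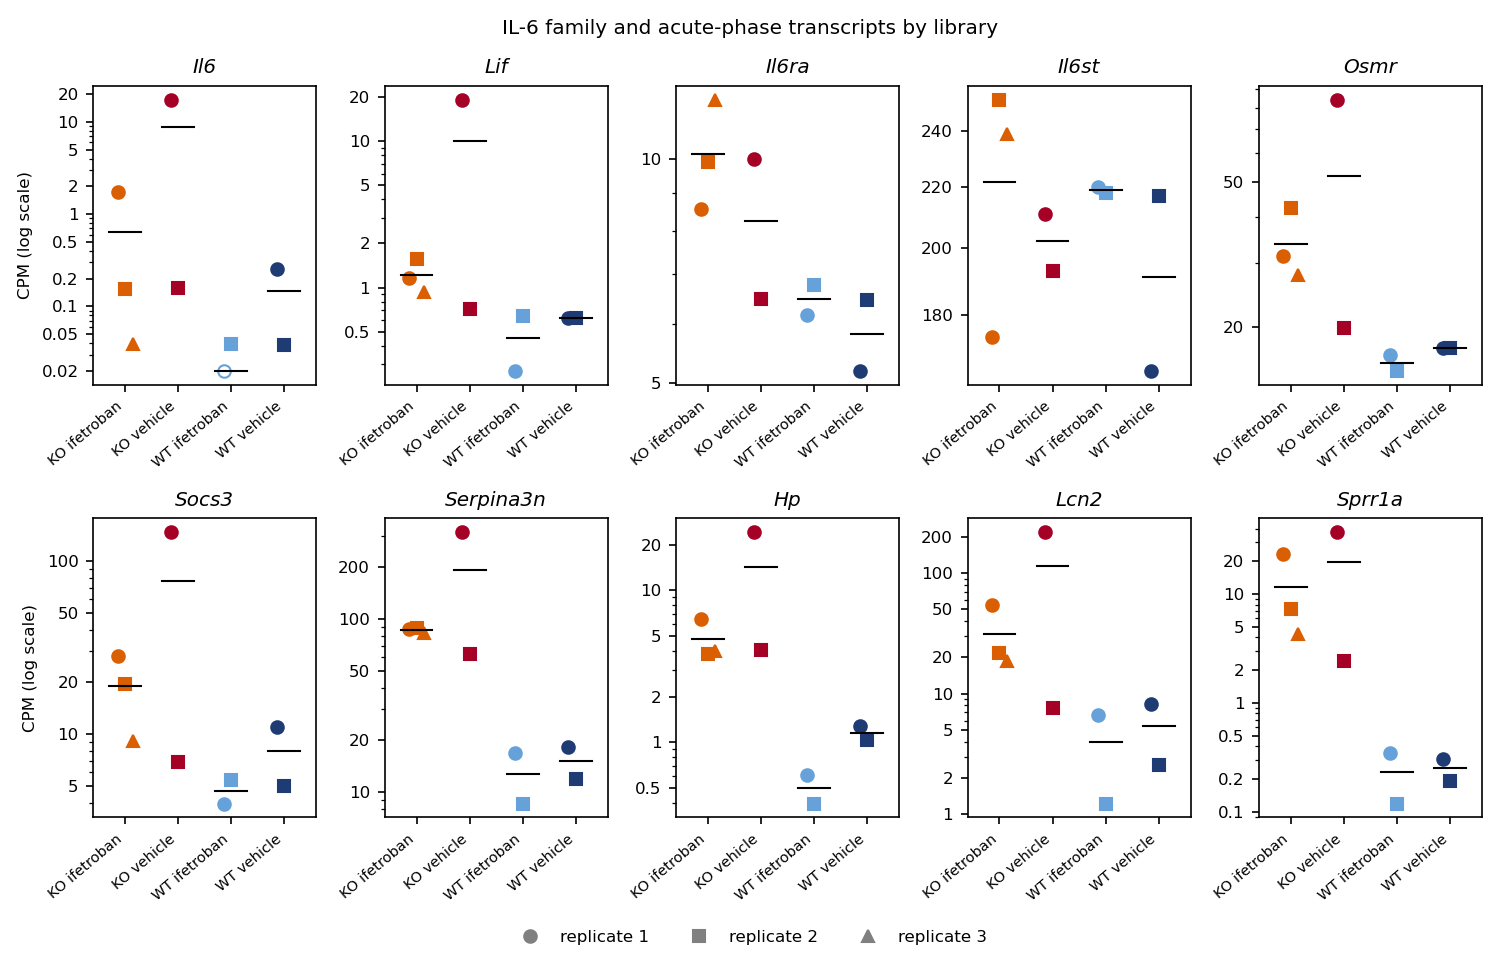
CPM of each gene in each library (points, log scale, replicate number by shape), with the group mean as a line. The open circle for Il6 stands for 0 reads in WT ifetroban replicate 1 and is drawn at the foot of the axis. KO vehicle replicate 1 is the top point in 8 of the 10 panels, and in Serpina3n, Hp and Sprr1a all 5 KO points lie above all 4 WT points.

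Among the ligands, Il6 encodes the cytokine that gives the family its name. It had 1.73, 0.153 and 0.0388 CPM in KO ifetroban, 17.5 and 0.159 CPM in KO vehicle, 0 and 0.0396 CPM in WT ifetroban, and 0.257 and 0.0386 CPM in WT vehicle libraries. Of its 423 reads in KO libraries, 376 came from KO vehicle replicate 1 and 37 from KO ifetroban replicate 1, against 7 reads in all WT libraries. The other 3 KO libraries, with 1 to 5 reads, overlapped the WT libraries. In ifetroban-treated mice, 43 KO reads stood against 1 WT read, and 37 of the 43 came from KO ifetroban replicate 1. No test was drawn from these reads.

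Lif encodes leukemia inhibitory factor, a cytokine that can drive growth of cardiomyocytes. It had 1.17, 1.56 and 0.931 CPM in KO ifetroban, 19.2 and 0.715 CPM in KO vehicle, 0.268 and 0.634 CPM in WT ifetroban, and 0.616 and 0.618 CPM in WT vehicle libraries. All 5 KO libraries were above all 4 WT libraries, although KO vehicle replicate 2 (18 reads) exceeded the highest WT library (16 reads) by little.

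The receptors differed among themselves. Osmr, which encodes the oncostatin M receptor and is found on fibroblasts and cardiomyocytes, had 31.3, 42.5 and 27.7 CPM in KO ifetroban, 84.2 and 19.9 CPM in KO vehicle, 16.7 and 15.1 CPM in WT ifetroban, and 17.5 CPM in both WT vehicle libraries. Every KO library was above every WT library. Il6ra, the receptor subunit that binds IL-6 itself, had 8.56, 9.88 and 12.0 CPM in KO ifetroban, 10 and 6.47 CPM in KO vehicle, 6.17 and 6.77 CPM in WT ifetroban, and 5.18 and 6.45 CPM in WT vehicle libraries. Its KO and WT libraries overlapped only through KO vehicle replicate 2. Il6st, the signalling subunit shared by the family, had 174, 252 and 239 CPM in KO ifetroban, 211 and 193 CPM in KO vehicle, 220 and 218 CPM in WT ifetroban, and 165 and 217 CPM in WT vehicle libraries. Its genotypes overlapped throughout.

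Socs3 encodes the inhibitor that shuts the receptor off and is a direct STAT3 target. It had 28.2, 19.4 and 9.08 CPM in KO ifetroban, 147 and 6.83 CPM in KO vehicle, 3.95 and 5.39 CPM in WT ifetroban, and 10.9 and 5.02 CPM in WT vehicle libraries. All KO ifetroban libraries were above both WT ifetroban libraries, whereas KO vehicle replicate 2 lay below the library labelled WT vehicle replicate 1.

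The acute-phase genes were led by Serpina3n, a secreted inhibitor of serine proteases. It had 87.0, 88.7 and 82.6 CPM in KO ifetroban, 319 and 62.7 CPM in KO vehicle, 16.7 and 8.56 CPM in WT ifetroban, and 18.3 and 11.9 CPM in WT vehicle libraries. The 3 KO ifetroban libraries were close to each other (86.1 ± 3.12 CPM, SD, n = 3), and the lowest KO library exceeded the highest WT library. Serpina3n belongs to a cluster of near-identical mouse paralogs, so reads that align to several of them may be missing from its count. Hp, which encodes the haemoglobin scavenger haptoglobin, had 6.54, 3.83 and 3.99 CPM in KO ifetroban, 24.3 and 4.05 CPM in KO vehicle, 0.614 and 0.396 CPM in WT ifetroban, and 1.28 and 1.04 CPM in WT vehicle libraries. Its genotypes did not overlap either.

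Lcn2 encodes lipocalin 2, an iron-siderophore binder released by neutrophils, macrophages and stressed cardiomyocytes. It had 54.2, 21.8 and 18.8 CPM in KO ifetroban, 220 and 7.62 CPM in KO vehicle, 6.71 and 1.23 CPM in WT ifetroban, and 8.21 and 2.55 CPM in WT vehicle libraries. KO vehicle replicate 2 was below the library labelled WT vehicle replicate 1, and the other 4 KO libraries were above every WT library. Sprr1a encodes a small proline-rich protein of the skin barrier that stressed cardiomyocytes also make in response to this cytokine family. It had 23.4, 7.36 and 4.31 CPM in KO ifetroban, 37.3 and 2.42 CPM in KO vehicle, 0.345 and 0.119 CPM in WT ifetroban, and 0.308 and 0.193 CPM in WT vehicle libraries. Its WT level rested on 23 reads in 4 libraries, against 1715 reads in 5 KO libraries, and the genotypes did not overlap.

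Per length of exon, the order of the genes by group mean differed between KO vehicle and WT vehicle libraries. In KO vehicle libraries the mean levels in CPM per kb were 92.4 for Serpina3n, 43.4 for Lcn2, 26.5 for Socs3, 24.6 for Sprr1a and 18.2 for Il6st, then 8.82 for Hp, 4.29 for Osmr, 3.64 for Il6, 2.29 for Lif and 0.953 for Il6ra. In WT vehicle libraries Il6st was the highest at 17.2 CPM per kb, followed by Serpina3n at 7.31, Socs3 at 2.75, Lcn2 at 2.05 and Osmr at 1.44. Hp at 0.724, Il6ra at 0.673, Sprr1a at 0.311, Lif at 0.142 and Il6 at 0.0608 CPM per kb came after them. The spread in KO vehicle was as large as the mean for most genes (Lcn2 114 ± 150 CPM, Socs3 76.7 ± 98.8 CPM, SD, n = 2), so neighbours in that order are not separated beyond it. In KO vehicle replicate 2 alone, Il6st at 17.3 CPM per kb came after Serpina3n at 30.4. Sprr1a at 3.01, Lcn2 at 2.91 and Socs3 at 2.36 were below it there, so their place above Il6st in the mean rests on replicate 1.

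Genotypes were compared averaged over both treatments by edgeR's quasi-likelihood test, with Benjamini-Hochberg adjustment over all 15261 genes. In either direction it called 0 of the 7 genes not picked for their rise. Over all genes, 77 (0.505%) were called higher in KO and 5 lower. Il6 was tested only because KO libraries carried it past the filter, so its genotype values are a description and it is left out of the counts that follow. Of the other 6 genes, 5 were higher in KO at an unadjusted p under 0.05 (10.6% of all genes), and DESeq2 called 4 higher (4.21% of all genes), namely Lif, Osmr, Socs3 and Lcn2. All KO libraries were above all WT libraries for 2 of the 7, Lif and Osmr, as for 5.03% of all genes, and for the 3 picked genes.

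The log2 fold changes of KO over WT in this comparison were large for the ligands, with wide errors. Lif was at 2.72 ± 0.798 (SE; edgeR adjusted p = 0.155). Il6 was at 5.29 ± 1.69, a value that rests on 7 WT reads and carries no test. With KO vehicle replicate 1 left out, Lif was at 0.83 and Il6 at 2.43.

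Of the receptors, Osmr was at 1.33 ± 0.352 (edgeR adjusted p = 0.121), Il6ra at 0.57 ± 0.183 (adjusted p = 0.185) and Il6st at 0.05 ± 0.145 (adjusted p = 0.879). When KO vehicle replicate 1 was left out these became 0.64, 0.40 and 0.02, and without the library labelled WT vehicle replicate 1 Il6st turned to -0.06. Socs3 was at 2.64 ± 0.741 (adjusted p = 0.141) and Lcn2 at 3.70 ± 0.928 (adjusted p = 0.105) by edgeR. Both were lower without KO vehicle replicate 1, at 0.90 for Socs3 and 1.76 for Lcn2.

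Of the picked genes, Serpina3n was at 3.21 ± 0.446 (SE) and at 2.41 without KO vehicle replicate 1, Hp at 3.41 ± 0.524 and 2.52, and Sprr1a at 5.96 ± 1.01 and 4.45. These are values of the contrast behind their choice and carry no test.

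When KO vehicle replicate 2 was left out in place of replicate 1, edgeR called Lif, Il6ra, Osmr, Socs3 and Lcn2 higher in KO, with replicate 1 as the only KO vehicle library and 2098 genes called in all. The calls for these genes thus depended on which KO vehicle library was kept.

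Within each class of the length trend, the mean log2 CPM (prior count 2) of WT libraries was subtracted from that of KO libraries. No test was run, and the share of all genes higher in KO in both classes was not counted. Among libraries with few long transcripts, where 3 KO libraries stood against the library labelled WT vehicle replicate 1 alone, the difference was 2.54 for Il6, 1.94 for Lif, 0.66 for Il6ra, 0.22 for Il6st, 1.10 for Osmr, 1.48 for Socs3 and 2.44 for Lcn2. Among the others, KO ifetroban replicates 2 and 3 stood against both WT ifetroban libraries and WT vehicle replicate 2. Treatment was thus not balanced between genotypes in either class. The difference in this second class was 0.67 for Il6, 1.21 for Lif, 0.74 for Il6ra, 0.17 for Il6st, 1.06 for Osmr, 1.47 for Socs3 and 2.83 for Lcn2. For the picked genes it was 2.71 and 2.83 for Serpina3n, 2.68 and 2.47 for Hp, and 5.06 and 4.32 for Sprr1a. KO vehicle replicate 1 was not among the second class, so a KO excess in Socs3, Lcn2 and Osmr was measured without it there, in 2 KO libraries.

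**Figure D2:**
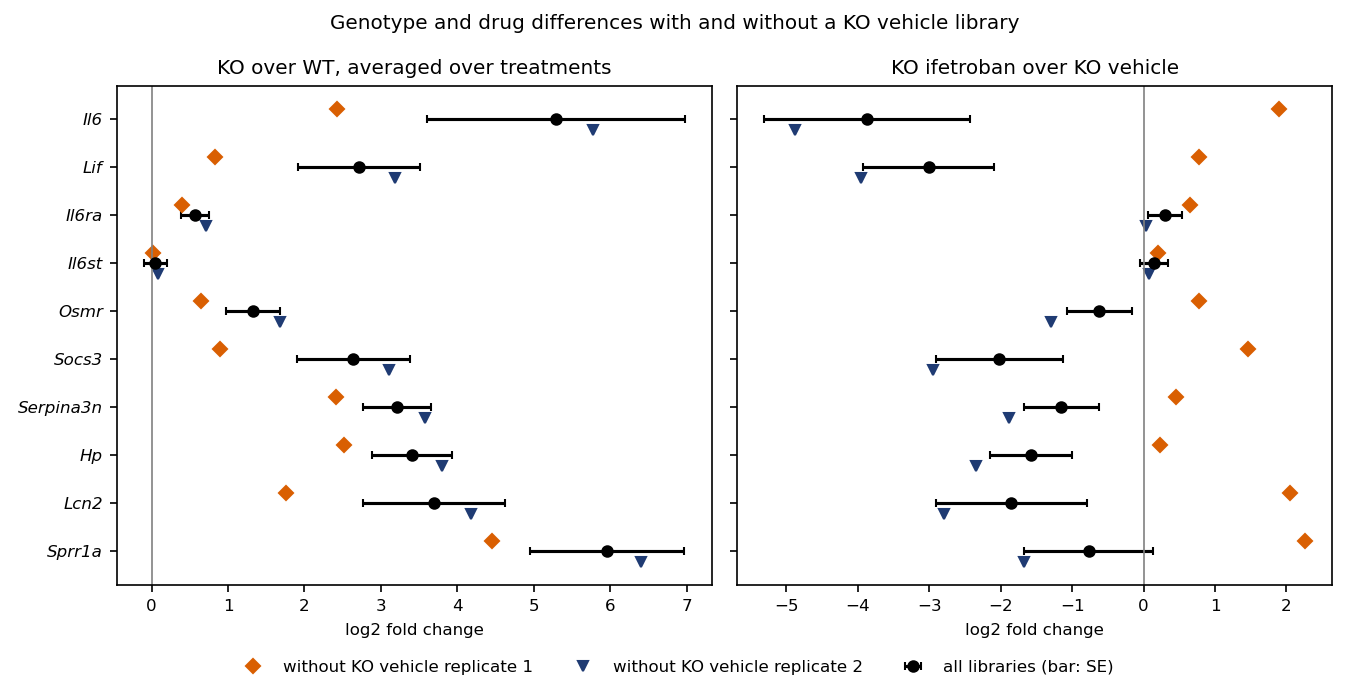
Log2 fold change of each gene (x axis) for KO over WT averaged over treatments (left panel) and for KO ifetroban over KO vehicle (right panel), with all libraries (black circles, bars are SE) and without either KO vehicle library (coloured symbols). On the right, Lcn2 is at -1.85 with all libraries and at 2.05 without KO vehicle replicate 1, and 8 of the 10 genes cross 0 in this way.

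In vehicle-treated mice alone, edgeR again called 0 of the 7 genes (0.0393% of all genes higher, and 2 genes lower). Without Il6, 4 of 6 were higher in KO vehicle at an unadjusted p under 0.05 (8.26% of all genes), and DESeq2 called 1 of 6, Osmr (2.13% of all genes). Both KO vehicle libraries were above both WT vehicle libraries for 3 of 7, Lif, Il6ra and Osmr (16.8% of all genes). The log2 fold change of Il6 was 5.97 ± 2.04, given with no test. Those of the others were 4.0 ± 1.15 for Lif, 0.50 ± 0.27 for Il6ra, 0.08 ± 0.214 for Il6st, 1.57 ± 0.516 for Osmr, 3.28 ± 1.09 for Socs3 and 4.42 ± 1.37 for Lcn2, with edgeR adjusted p values of 0.265 to 0.9. After KO vehicle replicate 1 was left out they were 0.21 for Il6, 0.21 for Lif, 0.15 for Il6ra, 0.19 for Osmr, -0.21 for Socs3 and 0.53 for Lcn2. The picked Serpina3n, Hp and Sprr1a were then at 2.06, 1.81 and 3.29, against 3.66, 3.6 and 6.31 with all libraries.

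The comparison of ifetroban-treated mice holds neither KO vehicle library nor the library labelled WT vehicle replicate 1. There edgeR called 0 of the 7 genes, with 0% of all genes called higher and 2 genes lower. Without Il6, 3 of 6 were higher in KO ifetroban at an unadjusted p under 0.05 (3.85% of all genes), and DESeq2 called 0 of 6 (0.419% of all genes). All KO ifetroban libraries were above both WT ifetroban libraries for 5 of 7, Lif, Il6ra, Osmr, Socs3 and Lcn2 (16.1% of all genes), and for the 3 picked genes. The log2 fold changes were 1.44 ± 1.12 for Lif, 0.65 ± 0.247 for Il6ra, 0.02 for Il6st, 1.09 ± 0.477 for Osmr, 2.01 ± 1.01 for Socs3 and 2.99 ± 1.25 for Lcn2, with edgeR adjusted p values of 0.955 to 0.998. Serpina3n was at 2.77, Hp at 3.22 and Sprr1a at 5.61. This comparison shares no library with that of vehicle-treated mice, though both use 1 estimate of the spread.

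For ifetroban in the knockout, Serpina3n, Hp and Sprr1a are again described with no test, because genes picked as high in KO libraries were picked partly on the KO vehicle values. The group means of 8 genes were lower in KO ifetroban than in KO vehicle libraries, yet none of the 7 genes tested passed. For Lif, Osmr, Socs3, Lcn2 and the picked Serpina3n and Sprr1a, the 3 KO ifetroban libraries lay below KO vehicle replicate 1 and above KO vehicle replicate 2. The share of all genes with this order was not counted. KO ifetroban libraries were all above, or all below, KO vehicle libraries for 0 of 10 genes (8.38% of all genes above and 7.58% below).

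EdgeR called 0 of the 7 genes not picked in this drug comparison (0% of all genes in either direction), with adjusted p values of 0.688 to 0.813. At an unadjusted p under 0.05, 3 of 7 were lower in KO ifetroban (2.42% of all genes lower and 2.59% higher), and DESeq2 called 0 of 7 (0.00655% of all genes lower and 0.0131% higher). The log2 fold changes were -3.87 ± 1.44 for Il6, -3.01 ± 0.917 for Lif, 0.30 for Il6ra, 0.14 for Il6st, -0.62 for Osmr and -2.02 ± 0.893 for Socs3. Serpina3n was at -1.15 ± 0.526, Hp at -1.57 ± 0.574, Lcn2 at -1.85 ± 1.06 and Sprr1a at -0.77.

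The direction of the drug difference depended on KO vehicle replicate 1. Without it, 8 genes turned to positive values, 1.90 for Il6, 0.78 for Lif, 0.77 for Osmr, 1.46 for Socs3, 0.46 for Serpina3n, 0.23 for Hp, 2.05 for Lcn2 and 2.26 for Sprr1a. Il6ra was then at 0.65 and Il6st at 0.20. Leaving out KO vehicle replicate 2 left replicate 1 as the only KO vehicle library. The values were then -4.88 for Il6, -3.95 for Lif, -1.3 for Osmr, -2.95 for Socs3 and -2.79 for Lcn2. They were -1.88 for Serpina3n, -2.34 for Hp and -1.68 for Sprr1a, with Il6ra at 0.03 and Il6st at 0.08.

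In wild-type mice, edgeR called 0 of the 10 genes between ifetroban and vehicle (0% of all genes), 0 of 10 passed an unadjusted p under 0.05 (0.315% of all genes higher and 0.944% lower) and DESeq2 called 0 (0% of all genes). Both WT ifetroban libraries were above both WT vehicle libraries for 1 gene, Il6st (14.9% of all genes), and below them for 2, Osmr and Hp (16.5% of all genes). Hp averaged 0.505 ± 0.154 CPM in WT ifetroban and 1.16 ± 0.17 CPM in WT vehicle libraries (SD, n = 2 each). The interaction of genotype and drug was called for 0 of the 7 genes by edgeR (0% of all genes), with 0 at an unadjusted p under 0.05 (0.74% of all genes positive and 0.642% negative) and 0 by DESeq2, so no difference between the drug effects of the genotypes was detected with these libraries.

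Other genes of the pathway were read from lists chosen by known role. Counts for KO over WT averaged over treatments leave out genes that passed the filter through KO libraries alone, since those had to be higher in KO; of all genes, 0.505% were called higher by edgeR, 10.6% were higher at an unadjusted p under 0.05 and 4.21% were called higher by DESeq2. Of 13 other ligands and receptor subunits, 10 passed the filter, 2 of them (Il11 and Osm) through KO libraries alone. Of the remaining 8, edgeR called 0, with 4 positive and a median log2 fold change of 0.02, against 0.00 over all genes. By unadjusted p under 0.05, 2 were higher and 2 lower, and DESeq2 called 2 higher. The share of all genes lower at that p is not given here, so the lower count has no comparison. Osm, the oncostatin M ligand made by macrophages and neutrophils, had 2.34, 0.706 and 0.31 CPM in KO ifetroban, 9.54 and 0.357 CPM in KO vehicle, 0.115 and 0.198 CPM in WT ifetroban, and 0.257 and 0.27 CPM in WT vehicle libraries. Every KO library was above every WT library, a description with no test, and the log2 fold change was 3.48 ± 0.988, or 1.60 without KO vehicle replicate 1.

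The JAK-STAT transducers are the kinases, transcription factors and adaptors that carry the signal. Of 10 JAK-STAT transducers, edgeR called 0, 3 were positive and the median was -0.13. Unadjusted p values under 0.05 numbered 1 higher (10.6% of all genes) and 1 lower (share of all genes not given). DESeq2 called 0 higher (4.21% of all genes). Stat3 was at 0.53 ± 0.199 (edgeR adjusted p = 0.241), with 186, 219 and 190 CPM in KO ifetroban, 269 and 138 CPM in KO vehicle, 158 and 121 CPM in WT ifetroban, and 157 and 122 CPM in WT vehicle libraries. KO vehicle replicate 2 lay among the WT libraries. Stat5b was at -0.35 ± 0.142 (edgeR adjusted p = 0.272).

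Of 10 feedback inhibitors other than Socs3, edgeR called 0, with 8 positive and a median of 0.10. At an unadjusted p under 0.05, 3 were higher (10.6% of all genes), and DESeq2 called 1 higher (4.21% of all genes). Ptpn6, a phosphatase of blood cells, was at 1.22 ± 0.233 (edgeR adjusted p = 0.058) and at 0.95 without KO vehicle replicate 1. It had 8.42 to 17.2 CPM in the 5 KO libraries and 4.0 to 5.45 CPM in the 4 WT libraries. Ptpn1, a phosphatase that acts on JAK2, was at 0.46 ± 0.164 (adjusted p = 0.221).

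Genes known as STAT3 targets had mostly positive values, none of which passed the adjusted test with all libraries. Of 18, edgeR called 0 and 17 were positive, with a median of 1.09. At an unadjusted p under 0.05, 10 were higher (10.6% of all genes), and DESeq2 called 6 higher (4.21% of all genes). The median was 0.21 without KO vehicle replicate 1, with 17 positive, and 1.45 without KO vehicle replicate 2. Timp1, an inhibitor of matrix proteases, had 96.8, 31.9 and 21.2 CPM in KO ifetroban, 337 and 10.1 CPM in KO vehicle, 3.07 and 0.911 CPM in WT ifetroban, and 3.18 and 1.35 CPM in WT vehicle libraries. Every KO library was above every WT library. The log2 fold change of Timp1 was 5.46 ± 1.03 (edgeR adjusted p = 0.058) and 3.41 without KO vehicle replicate 1. Fgl2, a membrane-bound prothrombinase of macrophages and endothelium, was at 1.90 ± 0.346 (adjusted p = 0.0529) and 1.27 without that library.

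Of 27 other acute-phase genes, 14 passed the filter, 6 of them through KO libraries alone. Of the remaining 8, edgeR called 0 and all 8 were positive, with a median of 1.04. At an unadjusted p under 0.05, 6 were higher (10.6% of all genes), and DESeq2 called 2 higher (4.21% of all genes). The median of these 8 fell to 0.57 when KO vehicle replicate 1 was left out. With replicate 2 of that group dropped instead, it rose to 1.20. It stayed at 1.04 in the absence of the library labelled WT vehicle replicate 1. Each of these fits had a lone library in a group, so calls are not given. Leaving out a library also changed which genes were tested, and 22 of the 27 passed the filter without KO vehicle replicate 2 or without the library labelled WT vehicle replicate 1.

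Serpina3g, a paralog of Serpina3n, and Ptx3, a pentraxin secreted at sites of inflammation, were among the 6 admitted by KO libraries alone and are described with no test. Serpina3g had 0.467, 0.706 and 0.621 CPM in KO ifetroban, 1.26 and 0.675 CPM in KO vehicle, 0.115 and 0.0792 CPM in WT ifetroban, and 0.154 and 0.193 CPM in WT vehicle libraries. Its groups did not overlap, with a log2 fold change of 2.49 ± 0.415 or 2.24 without KO vehicle replicate 1, but the counts were low, and near-identical paralogs may take part of its reads. Ptx3 was at 4.81 ± 0.983 on the log2 scale and at 2.87 without KO vehicle replicate 1.

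The drug comparison of the same lists in the knockout gave 0 calls by edgeR. The median log2 fold change of KO ifetroban over KO vehicle was -1.0 for the STAT3 targets, with 1 of 18 positive, and -1.19 for the other acute-phase genes, with 2 of 14 positive, against -0.02 over all genes. At an unadjusted p under 0.05, 6 of 18 STAT3 targets and 1 of 14 other acute-phase genes were lower, against 2.42% of all genes, and DESeq2 called 0. The genes that passed through KO libraries alone are among these 14. Without KO vehicle replicate 1 the medians were 0.42 and 0.27, with 16 of 18 and 11 of 14 positive. Among the other ligands and receptor subunits the median was -0.40 with all libraries and -0.08 without that library.

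**Figure D3:**
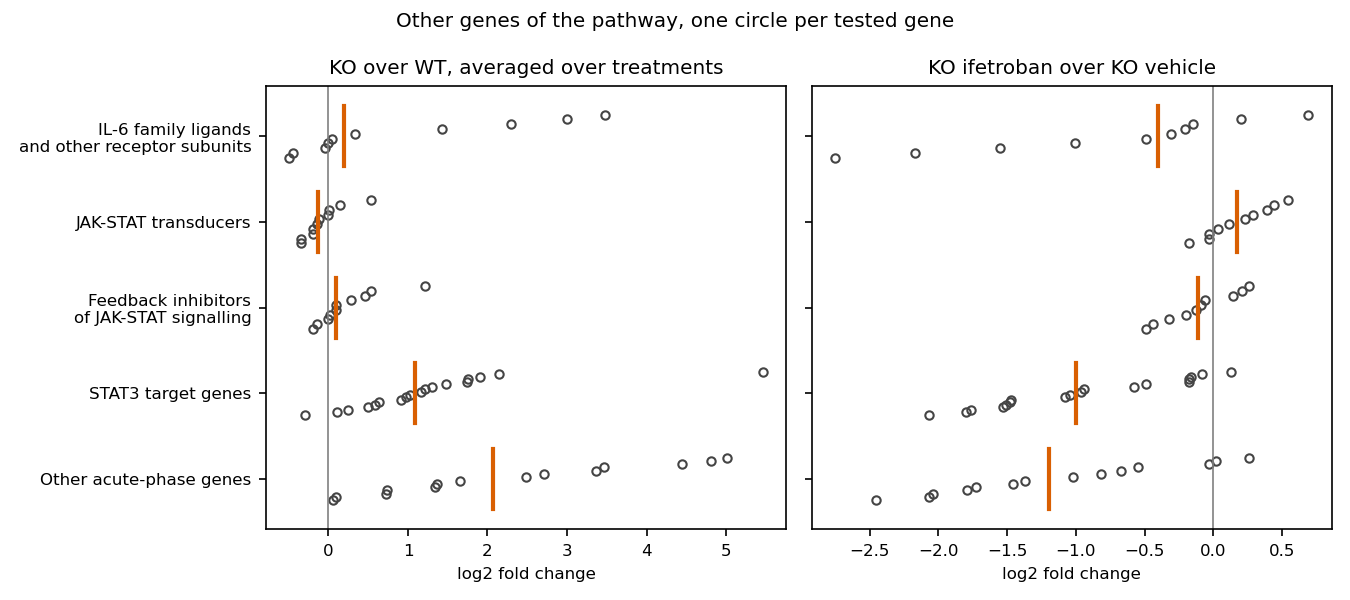
Log2 fold change (x axis) of each tested gene of the 5 lists (circles) with the list's median (vertical bar), for KO over WT averaged over treatments (left) and KO ifetroban over KO vehicle (right). Circles include genes that passed the filter through KO libraries alone, 6 of the 14 acute-phase genes among them. The STAT3 targets have a median of 1.09 on the left and -1.0 on the right.

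Markers of other cell types moved with several of these genes. The 10 macrophage markers summed to 565 to 600 CPM in KO ifetroban, 550 and 744 CPM in KO vehicle, 262 and 347 CPM in WT ifetroban, and 319 and 359 CPM in WT vehicle libraries, and 8 of the 10 were higher in every KO than in every WT library, as were 5.03% of all genes. The 13 neutrophil markers summed to 11.9 to 31.2 CPM in KO ifetroban, 17.8 and 30.3 CPM in KO vehicle, 3.41 and 8.17 CPM in WT ifetroban, and 7.23 and 12.9 CPM in WT vehicle libraries. Their part in the levels of Lcn2, Hp and Osm was not tested. Among them Camp, Mpo, Elane and Ngp were at or near 0 in all libraries, with at most 0.123 CPM, whereas S100a8 had 1.32 to 6.31 CPM in KO and 0.307 to 2.21 CPM in WT libraries. Mmp8 had 0.465 to 0.931 CPM in KO and 0.0384 to 0.232 CPM in WT libraries, and Mmp9 reached 5.1 CPM in WT ifetroban replicate 1.

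Markers of hepatocytes, in which Hp and many acute-phase genes are highest, stood out in 1 library. The 9 of 10 markers found summed to 91.1 CPM in KO vehicle replicate 1 and 2.74 CPM in KO vehicle replicate 2, with 8.09, 1.72 and 1.98 CPM in KO ifetroban, 1.92 and 1.27 CPM in WT ifetroban, and 3.18 and 1.97 CPM in WT vehicle libraries. Alb, which encodes albumin, made up 59.7 CPM of the sum in KO vehicle replicate 1. Their part in the high Hp, Lcn2 and Serpina3n of that library was not tested.

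Keratinocyte markers were read because Sprr1a encodes a protein of the skin barrier, and Krt5, Krt15 and Krtdap among them had 0 reads in all 9 libraries. The 10 markers summed to 4.89 to 7.01 CPM in KO ifetroban, 5.20 and 9.40 CPM in KO vehicle, 3.84 and 4.12 CPM in WT ifetroban, and 4.52 and 4.56 CPM in WT vehicle libraries, most of it from Krt10 and Sfn. Sfn had 7.07 CPM in KO vehicle replicate 1 and 3.83 CPM in KO ifetroban replicate 1, against 1.55 to 2.55 CPM elsewhere. Its relation to Sprr1a was not tested. The fibroblast markers summed to 2470 to 3440 CPM in the 5 KO libraries and 2100 to 2460 CPM in the 4 WT libraries, and the endothelial markers to 691 to 876 CPM in KO and 656 to 897 CPM in WT libraries. The adipocyte sum was 1.03 to 2.45 CPM in KO and 0.396 to 0.657 CPM in WT libraries, and the atrial sum, mostly the stress gene Nppa, was 374 to 1280 CPM in KO and 212 to 285 CPM in WT libraries.

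**Figure D4:**
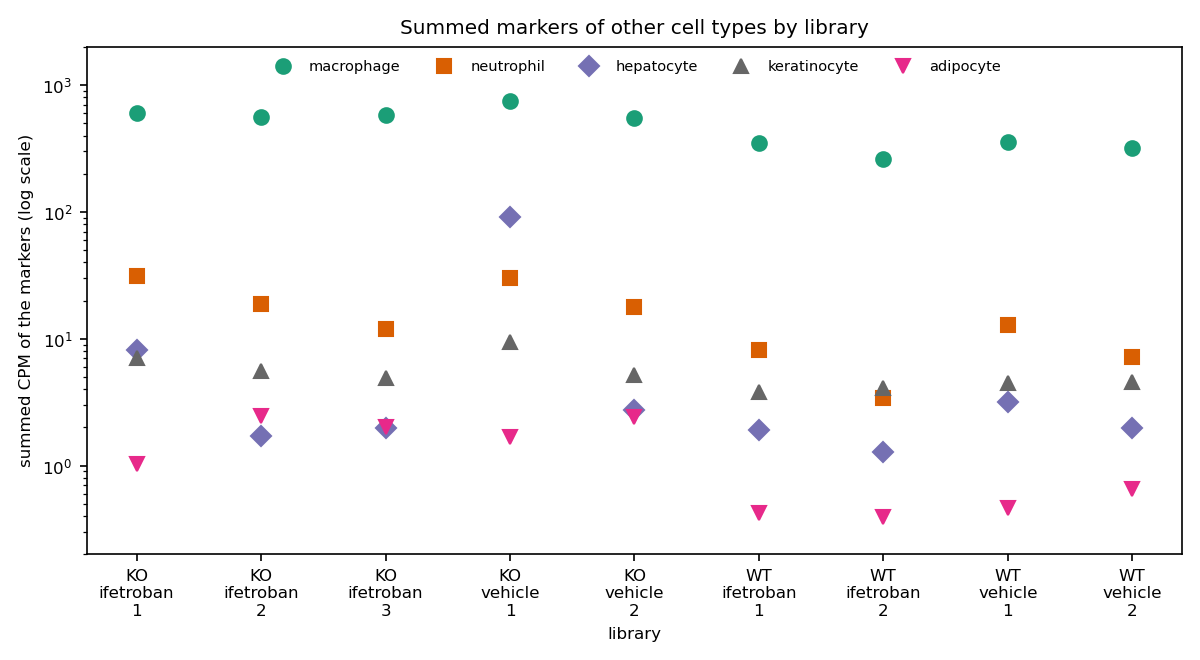
Summed CPM (log scale) of the markers of 5 other cell types in each library. The macrophage sum is higher in all 5 KO libraries than in the 4 WT libraries, and the hepatocyte sum is 91.1 CPM in KO vehicle replicate 1 and at most 8.09 CPM elsewhere.

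The genes with the most similar pattern were ranked by Pearson correlation of log2 CPM over the 9 libraries among 11229 genes, as a description that shares the extreme KO vehicle replicate 1. For Socs3 they were H13 (0.989), E2f4 (0.988) and Rara (0.985). For Serpina3n they were Selplg, a leukocyte ligand of selectins (0.996), A4galt (0.990) and the Fc receptor gene Fcgr2b (0.986). For Lcn2 they were Ms4a6d, the chemokine receptor gene Ccr1 and the chemokine gene Ccl6 (0.991, 0.984 and 0.984). Selplg had 6.92, 7.30 and 6.79 CPM in KO ifetroban, 11 and 6.04 CPM in KO vehicle, 4.03 and 3.01 CPM in WT ifetroban, and 4.26 and 3.75 CPM in WT vehicle libraries, which spans a narrower range than Serpina3n.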

How the data were processed

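Raw counts of reads per gene, 1 table a library, were deposited by the authors. The submitters' processing notes name STAR 2.5.2b, HTSeq and the build GRCm38; the annotation release is not given in the sources used here. The count column of the sequenced strand was used, which held 14.5 times the counts of the opposite strand. Rows that name no gene held 26.6% to 31.9% of reads and were left out. Counts in genes ran from 21299748 to 31394548 per library, and replicates of a group differed beyond sampling noise. Of 49671 identifiers, 49412 were matched to GENCODE annotation of GRCm38 for symbols and exon lengths.

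Genes were tested with edgeR 4.0.16 (quasi-likelihood F test, two-sided, TMM, filterByExpr) in R 4.3.3, with 1 coefficient per group, all 9 libraries sharing the spread, and Benjamini-Hochberg adjustment at 0.05. The test was checked on simulated counts with the same spread for every gene, no outlying library and no length trend. That check does not cover the features seen in these libraries. Fold changes carry edgeR's prior count of 0.125, and their standard errors, calculated back from the F statistic, are approximate. CPM used TMM library sizes. Genotype counts without genes that fewer than 2 WT libraries carried past the filter, and drug counts in KO without the picked genes, were added after the data were seen. Alternatives were DESeq2 1.42.0, its size factors, no filter, the unstranded column, a term for the length trend, fits of the compared groups alone, the replicate block and leaving out libraries.

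The 10 genes, the pathway lists and the marker lists were chosen with earlier results of these data known. The text names all 10 genes, the 2 genes of each list with the smallest p in KO over WT averaged (1 of these is not reported here), and the 3 genes of most similar pattern to Socs3, Serpina3n and Lcn2 above a mean log2 CPM minimum of 1. The single marker genes named, and Selplg for its values, were chosen after their values were seen.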

Additional observations from a re-analysis of the deposited data

How the results depend on the processing

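Counts of called genes moved with 4 choices, and the cause was not tested. With no filter on low counts, edgeR called 5 of 7 genes in vehicle-treated mice, 4 in ifetroban-treated mice, 5 averaged over treatments, 6 of 10 for the drug in KO and 2 for the interaction, with 1195, 428, 1684, 428 and 73 of all genes called in these comparisons. The genotype counts in this paragraph include Il6, and the counts for the drug in KO include the picked Serpina3n and Hp, which are otherwise described with no test. DESeq2 called 1 of 7 in vehicle-treated mice and 5 averaged, with 373 and 754 of all genes called. Leaving out 1 library in turn moved the counts in vehicle-treated mice, averaged and for the drug in KO, each highest without KO vehicle replicate 2. In each of these comparisons the count over all genes was highest there too. That fit assumes that the lone KO vehicle library varies like the other groups, so its counts of these genes are not given. Over all genes the averaged comparison called 82 genes, against 754 by DESeq2, 531 with the replicate block, 9 with a term for the length trend and 2 to 2098 with 1 library left out.

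Same-numbered libraries correlated at 0.00108 to 0.478 in their deviations over 12 pairs, not all over 0.1. Some of these values repeat others, because in the smallest groups the deviations of the replicates mirror each other. The 12 pairs are therefore not separate checks, and they cannot decide whether same-numbered libraries share more than a number. With the replicate block, which drops KO ifetroban replicate 3 from the estimate, edgeR called Lcn2 averaged over treatments, where 531 of all genes were called. Il6 is left out here, since KO libraries alone carried it past the filter. Sprr1a turned to 0.27 and Il6st to -0.05 in the drug and ifetroban-treated comparisons.

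For the drug in KO, leaving out 1 library gave -4.88 to 1.90 for Il6, -3.95 to 0.78 for Lif, -1.30 to 0.77 for Osmr, -2.95 to 1.46 for Socs3, -1.88 to 0.46 for Serpina3n, -2.34 to 0.23 for Hp, -2.79 to 2.05 for Lcn2 and -1.76 to 2.26 for Sprr1a, each highest value without KO vehicle replicate 1. Leaving out both first vehicle libraries gave those highest values again, with Lcn2 at 2.04. The length term put Il6st at -0.18 and Sprr1a at 0.13. In vehicle-treated mice Socs3 ran between -0.21 and 4.21 with 1 library left out. Il6st, near 0 throughout, ran between -0.13 and 0.28 in vehicle-treated mice, -0.09 and 0.17 in ifetroban-treated mice, and -0.06 and 0.14 averaged. It was at -0.16 in vehicle-treated mice and -0.07 averaged without both first vehicle libraries, and at -0.01 in ifetroban-treated mice by DESeq2 and by its size factors. Without KO ifetroban replicate 2 it was at -0.01 averaged, and without replicate 3 at -0.05 in ifetroban-treated mice. The other single-gene values kept their direction. Of these, 600 were counted as unchanged, 45 came to pass the threshold and 9 shifted in size. For genotype values of the picked genes and values within length classes, unchanged meant a shift smaller than the gene's pooled SD of log2 CPM within groups. For the rest it meant the same side of the threshold, so large shifts could count as unchanged. Lif in vehicle-treated mice was counted so, at 4.0 with all libraries and 0.21 without KO vehicle replicate 1. Il6 could not be fitted without KO ifetroban replicate 1, where it failed the filter. With 2 libraries in 3 of the groups, precision is limited by their number, and low-count genes such as Il6 and Serpina3g by depth.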
